A study of Mus musculus with 8 samples.

Results

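The 10 genes described here are Fkbp5, Tsc22d3, Sgk1, Zbtb16, Mt1, Mt2, Cdkn1a, Klf9 and Klf15, all known to be induced by glucocorticoid hormones in one tissue or another, together with Nr3c1, which encodes the glucocorticoid receptor. They were taken by name, as all probes whose accession maps to one of these genes. The 10 genes had 12 probes on the array, and all 10 genes were measured, out of 21792 features in all, of which 13692 were named genes. None of their probes was saturated. A second Cdkn1a probe was not used because it was well above background in 3 of the 8 samples. For Nr3c1, the brighter of 2 measured probes was used.

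RNA was compared between 4 mouse hearts homozygous for a mutant Pus1 and 4 wild-type hearts, on 4 2-colour Agilent arrays that each paired a mutant with a wild-type heart, females with females and males with males. Pairs 1 and 2 were females, and pairs 3 and 4 were males. Mutant and wild-type animals alike had been backcrossed to C57BL/6J for 5 generations, were 14 to 16 weeks of age and, per the labels, had no treatment. What was altered in Pus1 is not said in the labels. The mutant heart carried the dye Cy5 in pairs 1 and 3 and Cy3 in pairs 2 and 4, and the RNA came from a frozen piece holding both atrium and ventricle. Pus1, which encodes a pseudouridine synthase that modifies uridines in RNA, had normalized log2 intensities of 7.07, 7.56, 7.24 and 7.13 in the mutant hearts of pairs 1 to 4, against 9.22, 9.23, 8.92 and 9.01 in their wild-type partners. The groups did not overlap for this gene.

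Glucocorticoids are adrenal steroids whose release follows the time of day and stress. They bind the receptor encoded by Nr3c1, which is held by chaperones until the hormone arrives and then acts on DNA as a transcription factor, often at palindromic glucocorticoid response elements. In the heart muscle of mice the receptor is needed for normal contraction and for keeping the adult heart from enlarging, and its targets there include regulators of inflammation, ion transport and fuel use. The hormone itself was not measured here.

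The promoter windows of these genes are shown because a shared receptor is what groups them. RefSeq transcript starts (assembly GRCm38.p6) were found for 8 of the 10 genes, 16 starts in all. Zbtb16 and Nr3c1 were not among the matched genes. The 250 bases before each start were searched on both strands for the full element, which is the half-site AGAACA and its reverse complement TGTTCT with any 3 bases between them, and for the half-site alone. The full element was in 3 of the 32851 windows of this length, 0.00913%, and 1 of the 3 was that of an Sgk1 start at chr10:21993640-21993889 on the plus strand. The match lay 189 to 175 bases before the start and is in capitals below.
Sgk1: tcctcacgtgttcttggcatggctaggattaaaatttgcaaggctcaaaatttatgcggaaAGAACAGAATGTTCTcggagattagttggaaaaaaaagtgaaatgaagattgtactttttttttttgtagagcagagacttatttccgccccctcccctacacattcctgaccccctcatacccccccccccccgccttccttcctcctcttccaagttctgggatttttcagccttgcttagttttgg
The half-site was in 16.1% of all windows. In the Sgk1 window shown, 2 of 3 half-sites lie inside the full element. Counting that window, the half-site was in 3 of the Sgk1 windows and absent from the other Sgk1 windows. It was also in 1 of the 3 Tsc22d3 windows, at chrX:140600523-140600772 on the minus strand, 185 to 180 bases before the start, where it reads as its reverse complement and is in capitals.
Tsc22d3: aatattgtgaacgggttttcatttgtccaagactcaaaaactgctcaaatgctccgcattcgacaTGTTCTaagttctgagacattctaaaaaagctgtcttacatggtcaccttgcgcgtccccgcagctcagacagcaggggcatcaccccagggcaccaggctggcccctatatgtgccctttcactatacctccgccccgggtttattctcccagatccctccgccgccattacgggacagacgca
The windows of Fkbp5, Mt1, Mt2, Cdkn1a, Klf9 and Klf15 did not hold these letters. A metal response core, TGCACNC or TGCGCNC, to which the zinc-sensing factor Mtf1 binds, was in 21.4% of all windows, and 1.26% held 3 or more. Mt2 held 3 cores, and Mt1 and Klf15 held 1 each. A match here is a description of letters near a start and not a site of binding.

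The 10 genes differed widely in how much they varied from heart to heart. Zbtb16, a transcription factor of the zinc finger family that is strongly induced by glucocorticoids in many cells, had an SD of 0.82 on the log2 scale over the 8 hearts. That was larger than in 97.6% of all features, whose median SD was 0.20. Its highest heart was 5.15-fold above its lowest. Tsc22d3, which encodes the anti-inflammatory leucine zipper protein GILZ, had an SD of 0.60 and a 3.49-fold range. Cdkn1a, the cell cycle inhibitor p21 that p53 also induces, and Mt2, a zinc-binding metallothionein, each had an SD of 0.51. At the other end, the brighter probe of the receptor gene Nr3c1 had an SD of 0.07 and a 1.18-fold range, and 1.33% of features varied less. The dimmer probe of the same gene had an SD of 0.20 and a 1.59-fold range, so this low spread depended on the probe.

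**Figure D1:**
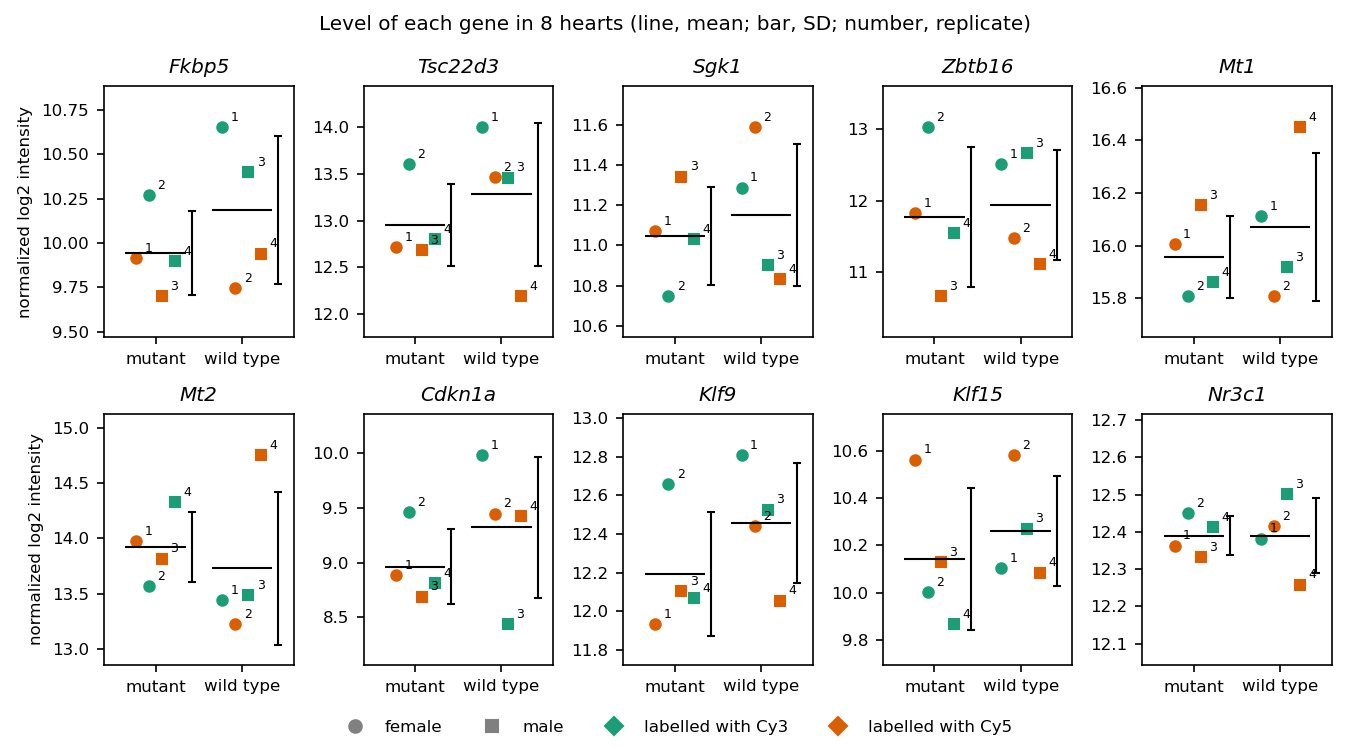
Normalized log2 intensity of each of the 10 genes in the 8 hearts, mutant left and wild type right in each panel. Points are single hearts with their pair number, circles are females and squares males, colours give the dye, the line is the mean and the bar is the SD (n = 4). Mutant and wild-type points overlap in all 10 panels, and the axes differ in span between genes.

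Fkbp5 encodes a co-chaperone that binds the receptor complex and limits its response to hormone. Its normalized log2 intensity was 9.91, 10.27, 9.70 and 9.90 in the mutant hearts of pairs 1 to 4, against 10.65, 9.74, 10.40 and 9.94 in wild-type hearts. Mutant heart 2 and wild-type hearts 1 and 3 were high, the other 5 lay within a narrow band, and the groups overlapped. Over the 4 arrays the log2 ratio of mutant over wild type was -0.74, 0.52, -0.70 and -0.04. The fitted genotype difference was -0.24 (SE 0.14, n = 4 pairs, limma adjusted p = 1.00). It was -0.098 without pair 4, -0.38 without pair 2 and -0.096 with median centring in place of loess.

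Tsc22d3 had levels of 12.72, 13.60, 12.68 and 12.80 in mutant hearts, against 14.00, 13.46, 13.46 and 12.19 in wild-type hearts. Mutant heart 2 stood well above the other 3 mutants, and wild-type heart 4 was the lowest of all 8. The mutant was lower than its partner in pairs 1 and 3, with ratios of -1.28 and -0.77, and higher in pairs 2 and 4, with 0.14 and 0.61. The fitted difference was -0.33 (SE 0.15, limma adjusted p = 1.00), and it was -0.20 without pair 1, -0.21 without pair 2 and -0.20 with median centring.

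Zbtb16 had levels of 11.83, 13.03, 10.67 and 11.55 in mutant hearts and 12.52, 11.48, 12.66 and 11.12 in wild-type hearts. The highest and the lowest of the 8 hearts were both mutants, heart 2 and heart 3. The ratios within arrays were -0.69, 1.56, -1.996 and 0.43, so that their SD of 1.52 was far larger than the fitted difference of -0.17 (SE 0.31, limma adjusted p = 1.00).

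Klf9, a Krüppel-like transcription factor known as a direct receptor target, had levels of 11.93, 12.66, 12.10 and 12.07 in mutant hearts and 12.81, 12.44, 12.53 and 12.06 in wild-type hearts. Mutant heart 2 and wild-type hearts 1 to 3 were high, and the other 4 were close together. Its ratios were -0.88, 0.22, -0.42 and 0.01, with a fitted difference of -0.27 (SE 0.13, limma adjusted p = 1.00), or -0.15 without pair 1 and -0.13 with median centring. Klf15, which controls amino acid and lipid use in muscle, had levels of 10.56, 10.004, 10.13 and 9.87 in mutant hearts and 10.10, 10.58, 10.27 and 10.09 in wild-type hearts. Its 2 highest hearts were mutant 1, the lowest heart for Klf9, and wild type 2. The fitted difference of Klf15 was -0.12 (SE 0.15).

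Sgk1 encodes a kinase that raises sodium transport and responds to both glucocorticoids and mineralocorticoids. It had levels of 11.07, 10.75, 11.34 and 11.03 in mutant hearts and 11.29, 11.59, 10.90 and 10.83 in wild-type hearts. The mutant was lower in both female pairs, with ratios of -0.22 and -0.84, and higher in both male pairs, with 0.44 and 0.20. The fitted genotype difference was -0.10 (SE 0.23). Cdkn1a had levels of 8.89, 9.46, 8.69 and 8.82 in mutant hearts, against 9.98, 9.45, 8.44 and 9.42 in wild-type hearts. Wild-type hearts held both its highest and its lowest level, and the fitted difference was -0.36 (SE 0.27). That value rested on single pairs, at -0.024 without pair 1 and -0.70 without pair 3.

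The metallothioneins bind zinc and copper and are induced by metals as well as by glucocorticoids. Mt1 had levels of 16.00, 15.81, 16.15 and 15.86 in mutant hearts and 16.11, 15.81, 15.92 and 16.45 in wild-type hearts. Mt2 had levels of 13.98, 13.57, 13.82 and 14.33 in mutant hearts, against 13.44, 13.23, 13.49 and 14.76 in wild-type hearts. Wild-type heart 4 was the highest for both genes. Mt2 was higher in the mutant in 3 of 4 pairs, with ratios of 0.54, 0.34 and 0.33, and lower in pair 4 at -0.43. The fitted difference was 0.20 (SE 0.17) for Mt2, or 0.0023 without pair 2, and -0.12 (SE 0.15) for Mt1.

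Nr3c1 had levels of 12.36, 12.45, 12.33 and 12.41 in mutant hearts and 12.38, 12.42, 12.50 and 12.26 in wild-type hearts. The means were 12.39 ± 0.05 in mutants and 12.39 ± 0.10 in wild type (SD, n = 4 each). The dimmer probe of the same transcript, which spanned 8.55 to 9.10 in mutant hearts and 8.79 to 9.22 in wild-type hearts, gave a fitted difference of -0.11. The sign for this gene therefore depended on the probe.

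**Figure D2:**
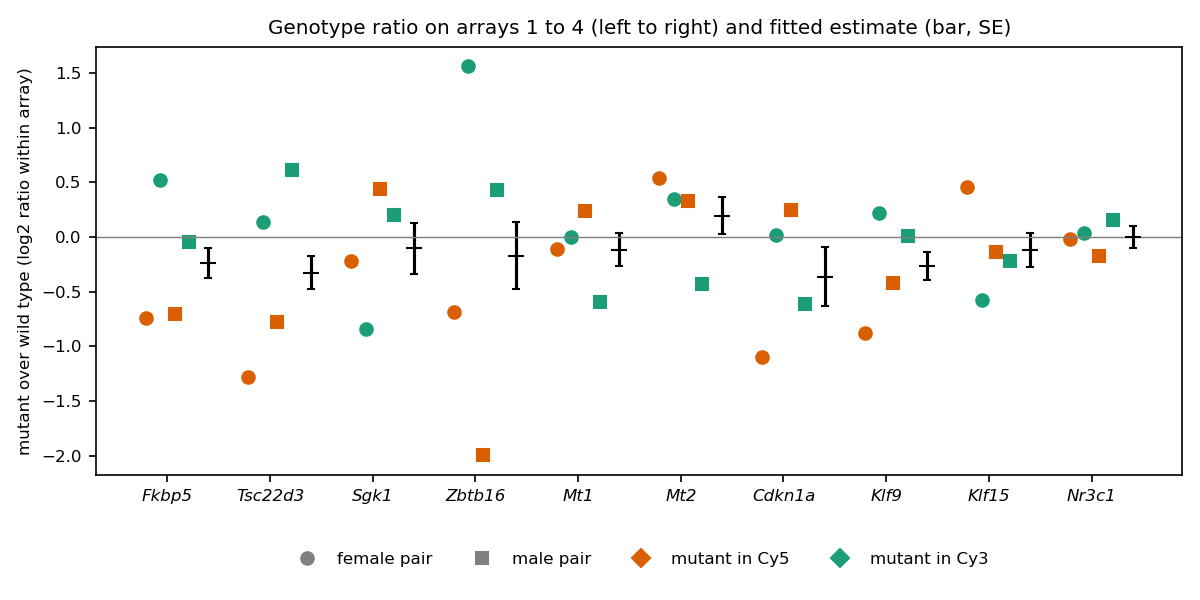
Log2 ratio of mutant over wild type within each of the 4 arrays, for the 10 genes. Circles are female and squares male pairs, colours give the dye of the mutant heart, and the black mark is the fitted genotype difference with its SE. No gene has all 4 points on the same side of 0, and Zbtb16 spans -1.996 to 1.56.

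Read together, none of the 10 genes passed an adjusted p of 0.05 between genotypes in limma, as was so for 0% of all features. At an unadjusted p under 0.05 in limma the count was 0 of 10, against 1.02% of features. The fitted difference was negative in 8 of the 10, where 55.4% of all features were negative, and in 6 of the 10 with median centring in place of loess, where 26.0% of features were. The sign of Nr3c1 turned with the processing. Leaving out 1 pair turned Sgk1 to 0.060 without pair 1 and 0.15 without pair 2, Zbtb16 to 0.15 without pair 3 and 0.11 without pair 4, Klf15 to 0.030 without pair 3 and Mt1 to 0.032 without pair 4. The median over the 10 was -0.15, beside -0.01 over all features. With median centring it was -0.030, beside 0.081 over all features, and leaving out a pair gave -0.095 without pair 1 to -0.24 without pair 2. No member had the mutant lower on all 4 arrays, which 2.55% of features did, nor higher on all 4, which 2.34% did. In simulated data, the genotype fit recovered 34% of changes of 1 log2 unit and 80% of changes of 2. The simulated spread of each feature came from the real ratios after a dye term and a genotype term for each sex. That left 1 residual degree of freedom and took out the difference between the sexes, which the genotype fit keeps as noise. These shares are thus no detection limit for the real fit. Changes of 1 log2 unit were often missed even in the simulation, and larger ones could be missed too. Pus1, lower in the mutant on all 4 arrays at -1.85 (SE 0.13), did not pass in the real fit (limma adjusted p = 0.99992). The simulated noise was independent between arrays, while the real ratios of 2 arrays correlated over features at -0.69 to 0.31. Each heart was a whole piece of tissue, so fewer cells of a type and less RNA per cell cannot be told apart.

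Cell type markers moved between hearts as well. The 6 measured of 7 ventricular myocyte markers, Hey2 being the one not measured, were bright in every heart, with mean levels of 16.26 to 17.01 in mutants and 16.44 to 16.95 in wild type. The 8 measured of 9 atrial myocyte markers, without Bmp10, averaged 10.18 to 14.32 in mutants and 9.88 to 13.38 in wild type. The 5 measured of 8 adipocyte markers, without Adipoq, Plin1 and Lep, averaged 7.49 to 12.40 in mutants and 7.60 to 11.24 in wild type. Mutant heart 2 was the highest of all 8 for both lists, and it was also the highest mutant for Fkbp5, Tsc22d3, Zbtb16, Cdkn1a, Klf9 and Nr3c1, and the lowest mutant for Sgk1, Mt1 and Mt2. The part of tissue makeup in these levels was not tested. Across the 8 hearts, the mean centred level of the 9 targets correlated with the mean atrial level at r = 0.17 and with the mean adipocyte level at r = 0.24. It was larger in size for other cell type lists, with 0.46 for endothelial cells, 0.46 for lymphocytes, -0.45 for macrophages and -0.42 for ventricular myocytes. These r are descriptions over hearts that share arrays.

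The genotype difference was next compared between the sexes, as the effect in females minus that in males, with 2 pairs each and 1 residual degree of freedom. Zbtb16 passed, with 1.22 on the log2 scale (SE 0.26, limma adjusted p = 0.0168), from a fitted difference of 0.44 in females and -0.78 in males. It was 1 of 10 genes called, where 9.34% of all features were called, and 0% with each of the 3 alternatives named below. Of the 2035 features called, 2008 were positive, as Zbtb16 was. The ratios of the sexes still overlapped, at -0.69 and 1.56 in females and -1.996 and 0.43 in males. Within each sex the 2 mutants carried different dyes, so the dye term took up most of the gap between the 2 pairs. The SE therefore does not measure the spread between pairs, and no fit without the dye term was run for this comparison. The call was lost with the array software's processed signals (limma adjusted p = 0.195), with the authors' deposited matrix (0.190) and with median centring in place of loess (0.303). Sgk1 differed by -0.85 (SE 0.26, limma adjusted p = 0.0937), with -0.53 in females and 0.32 in males, and did not pass. Its female ratios both lay below its male ratios, which was so for 14.9% of features.

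For the other 8 genes the female minus male difference ranged from -0.49 for Tsc22d3 to 0.49 for Mt2, and neither end passed (limma adjusted p = 0.441 and 0.483). With median centring these were -0.999 and 0.034, and leaving out a pair gave Mt2 0.21 to 0.77, with the low value without pair 2 or 4 and the high one without pair 1 or 3. The median over the 10 genes was 0.07, beside -0.04 over all features, and 4 of 10 were negative, beside 55.8% of features. With median centring 8 of 10 were negative, beside 69.9% of features.

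Female and male hearts were also compared in level, with all 8 hearts as separate channels. Females were on arrays 1 and 2 and males on arrays 3 and 4. A difference between the sexes and one between those arrays cannot be told apart. None of the 10 genes passed in limma, where 0.0229% of features did. Zbtb16 had levels of 11.83, 13.03, 12.52 and 11.48 in females and 10.67, 11.55, 12.66 and 11.12 in males, a fitted difference of 0.71 (SE 0.25, limma adjusted p = 0.741). Tsc22d3, which lies on the X chromosome, had levels of 12.72, 13.60, 14.00 and 13.46 in females and 12.68, 12.80, 13.46 and 12.19 in males. Its fitted difference was 0.66 (SE 0.20, limma adjusted p = 0.714). The female and male levels overlapped for both genes, and these were 2 of 10 genes at an unadjusted p under 0.05, beside 6.33% of features. Cdkn1a averaged 9.45 ± 0.45 in females and 8.84 ± 0.42 in males (SD, n = 4 each), with a fitted difference of 0.60 (SE 0.26). Mt2 averaged 13.55 ± 0.32 in females and 14.10 ± 0.56 in males, a difference of -0.54 (SE 0.29), which was -0.0996 without pair 4 and -0.99 without pair 3. The differences of Tsc22d3 and Cdkn1a also leaned on single pairs, at 0.38 without pair 4 and 0.32 without pair 3. In all, 8 of 10 were higher and 2 lower in females, where 51.1% of features were lower, and the median was 0.19 beside -0.0041 over all features. Markers of lymphocytes, 6 of 8 measured without Cd79a and Ighm, averaged 8.06 to 8.92 in females and 7.76 to 7.94 in males. Other lists leaned to 1 sex too. Higher in females were 8 of 8 fibroblast, 8 of 8 atrial, 5 of 5 adipocyte and 6 of 6 epicardial markers, and 6 of 6 ventricular ones were lower. The remaining cell type lists held both signs. The part of tissue makeup in these differences was not tested.

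Differences between the dyes were larger in size than those between genotypes for every gene of the 10 but Cdkn1a. The share of all features for which this held was not computed, so it is not a trait of these genes. At an unadjusted p under 0.05 in limma, 2157 of 21792 features differed between dyes and 223 between genotypes. Cy3 was carried by mutant hearts 2 and 4 and wild-type hearts 1 and 3, and Cy5 by mutant hearts 1 and 3 and wild-type hearts 2 and 4. Zbtb16 averaged 11.27 ± 0.50 in Cy5 hearts and 12.44 ± 0.63 in Cy3 hearts (SD, n = 4 each), a fitted difference of -1.17 (SE 0.31, limma adjusted p = 0.480). The difference was -0.70 for Tsc22d3 (SE 0.15), -0.48 for Fkbp5 (SE 0.14) and -0.38 for Klf9 (SE 0.13). These were the 4 of 10 genes at an unadjusted p under 0.05 with Cy5 lower, beside 6.05% of features. Their limma adjusted p ranged from 0.450 to 0.497, and no feature passed the adjusted threshold (0%).

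Cy5 was lower on all 4 arrays for Tsc22d3, Zbtb16, Klf9 and Nr3c1, 4 of 10 against 13.1% of features, and on 3 arrays for Fkbp5. The dye differences of Klf15 (0.28), Mt2 (0.24), Sgk1 (0.22), Mt1 (0.18), Nr3c1 (-0.09) and Cdkn1a (-0.06) were smaller. Each heart was labelled with 1 dye only, so a dye difference and a difference between these particular hearts cannot be told apart. Some lists of cell type markers leaned to 1 dye as well. Of the measured markers, 7 of 8 atrial and 5 of 5 adipocyte ones were lower in Cy5, beside 53.2% of all features. For erythroid and ventricular markers, 7 of 7 and 6 of 6 were higher in Cy5. In other lists, 4 of 8 fibroblast, 3 of 6 epicardial, 6 of 8 endothelial and 5 of 7 smooth muscle markers were lower. So were 2 of 7 macrophage, 1 of 6 lymphocyte and 4 of 5 skeletal muscle markers. Mean levels in Cy5 and Cy3 hearts were 10.18 to 13.38 and 9.88 to 14.32 for atrial markers, and 13.80 to 16.45 and 13.68 to 14.71 for erythroid markers. The part of tissue makeup in the dye differences was not tested.

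**Figure D3:**
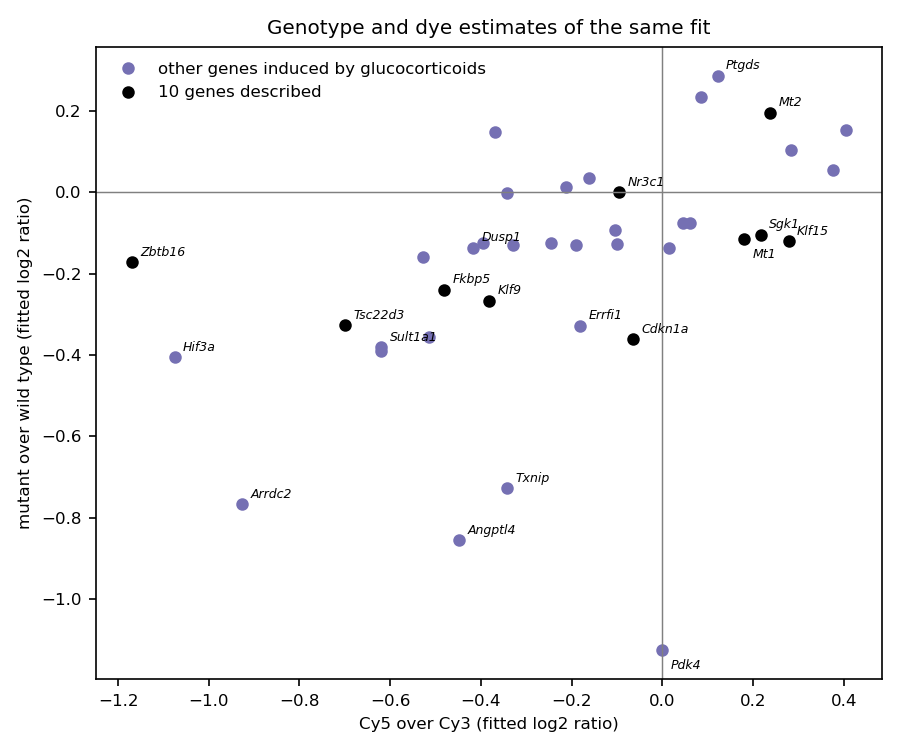
Fitted log2 ratio of Cy5 over Cy3 (horizontal) against that of mutant over wild type (vertical), for the 10 genes in black and 29 other genes induced by glucocorticoids in purple. Zbtb16, Tsc22d3, Fkbp5 and Klf9 lie left of 0 at -1.17 to -0.38 and lie closer to 0 on the vertical axis, at -0.33 to -0.17.

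Whether the genes moved together was then asked across the 8 hearts, with Pearson's r, Spearman's rho and exact permutation p-values over 40320 orders of the hearts, 2-sided. For each gene the p-values were adjusted by Benjamini-Hochberg over its correlations with all 21791 other features. Hearts of a pair shared an array and hearts of a dye shared its labelling, so the 8 points were not fully independent, and r is also given after centring on the mean of each dye. Groups of 1 dye or 1 sex held 4 hearts, too few for a value within them.

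Tsc22d3 and Klf9 had the highest r of the 45 pairs, 0.93 (exact permutation p = 0.00275, adjusted p = 0.181), with a rho of 0.86 (exact p = 0.0107). Without the 2 hearts farthest from the median of Tsc22d3, wild types 1 and 4, r was 0.97, and after dye centring it was 0.89. Both genes were high in mutant heart 2 and wild-type hearts 1, 2 and 3 and low in mutant hearts 1, 3 and 4 and wild-type heart 4. Of all features, 0.468% had a higher r with Tsc22d3 than Klf9 had.

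Fkbp5 and Zbtb16 had an r of 0.83 (exact permutation p = 0.0128, adjusted p = 0.409), a rho of 0.76 (exact p = 0.0368), and an r of 0.89 without wild-type hearts 1 and 3. After dye centring their r was 0.59. Fkbp5 and Klf9 had an r of 0.78 (exact permutation p = 0.0281, adjusted p = 0.431) with a rho of 0.55 (exact p = 0.171). Their r was 0.51 without wild-type hearts 1 and 3, so that this relation rested largely on those 2 hearts. Tsc22d3 and Zbtb16 had an r of 0.75 (exact permutation p = 0.0377, adjusted p = 0.323), a rho of 0.71 (exact p = 0.0576), and an r of 0.73 without wild-type hearts 1 and 4. Zbtb16 and Klf9 had an r of 0.74 (exact permutation p = 0.0451, adjusted p = 0.330), a rho of 0.57 (exact p = 0.151), and an r of 0.70 without mutant hearts 2 and 3. Fkbp5 and Tsc22d3 had an r of 0.70 (exact permutation p = 0.0557, adjusted p = 0.458), a rho of 0.52 (exact p = 0.197), and 0.35 without wild-type hearts 1 and 3. All 6 pairs among Fkbp5, Tsc22d3, Zbtb16 and Klf9 were thus positive, at 0.70 to 0.93, and they stayed positive after dye centring, at 0.46 to 0.89. Centring does not give the sign within each dye: among the 4 Cy3 hearts all 6 pairs were positive, and among the 4 Cy5 hearts Fkbp5 with Tsc22d3, Fkbp5 with Klf9, and Zbtb16 with Klf9 were negative. Likewise, with median centring in place of loess the r of Zbtb16 was 0.062 with Fkbp5, 0.38 with Tsc22d3 and -0.039 with Klf9. The 3 pairs without Zbtb16 were then at 0.55 to 0.80. These 4 were picked out after their values were seen, and they are the 4 genes lower in Cy5 hearts at an unadjusted p under 0.05, out of 6 of the 10 with a negative dye difference.

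Mt2 was negatively related to Tsc22d3 and Klf9. Its r with Tsc22d3 was -0.86 (exact permutation p = 0.00538, adjusted p = 0.213), with a rho of -0.79 (exact p = 0.0279), an r of -0.79 without wild-type hearts 1 and 4, and -0.93 after dye centring. Its r with Klf9 was -0.73 (exact permutation p = 0.0402, adjusted p = 0.528), with a rho of -0.76 (exact p = 0.0368) and an r of -0.76 without mutant heart 4 and wild-type heart 4. Its r with the other 2 genes was weaker, -0.49 with Zbtb16 (exact permutation p = 0.217, adjusted p = 0.546) and -0.35 with Fkbp5 (exact permutation p = 0.397, adjusted p = 0.795), and without wild-type hearts 1 and 3 that with Fkbp5 was 0.056. Mt1 and Mt2, which lie next to each other on chromosome 8, had an r of 0.63 (exact permutation p = 0.0894, adjusted p = 0.999) and a rho of 0.43 (exact p = 0.299). Without mutant heart 3 and wild-type heart 4 their r was 0.02, so that relation rested on those 2 hearts.

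Nr3c1 had an r of 0.72 with Zbtb16 (exact permutation p = 0.042, adjusted p = 0.325), with a rho of 0.74 (exact p = 0.0458) and an r of 0.68 without mutant hearts 2 and 3. Its r with Mt1 was -0.86 (exact permutation p = 0.00627, adjusted p = 0.999), with a rho of -0.83 (exact p = 0.0154) and -0.50 without mutant heart 3 and wild-type heart 4. After dye centring these r were 0.42 and -0.85. They were relations over a range of 0.24 on the log2 scale with the brighter Nr3c1 probe. The dimmer probe, with a range of 0.67, had an r of 0.50 with Zbtb16 (exact permutation p = 0.206) and of -0.33 with Mt1 (exact permutation p = 0.420).

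Over all 45 pairs the median r was -0.06, beside 0.002 over all pairs of features, with 22 positive and 23 negative values. An exact p under 0.05 was reached by 9 of the 45 pairs. The share of all features at that level was 17.4% for Klf9, 16.7% for Sgk1, 14.8% for Zbtb16, 14.3% for Tsc22d3, 11.1% for Fkbp5, 9.27% for Mt2, 5.08% for Klf15, 4.99% for Nr3c1, 3.5% for Cdkn1a and 3.13% for Mt1. None of the 45 pairs passed after adjustment, as was so for 0% of all features with each of the 10 genes, and the lowest adjusted p was 0.181 for r and 0.205 for rho. The median r was 0.28 after dye centring and 0.57 with median centring in place of loess, so that it depended on how dye and scale were treated.

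**Figure D4:**
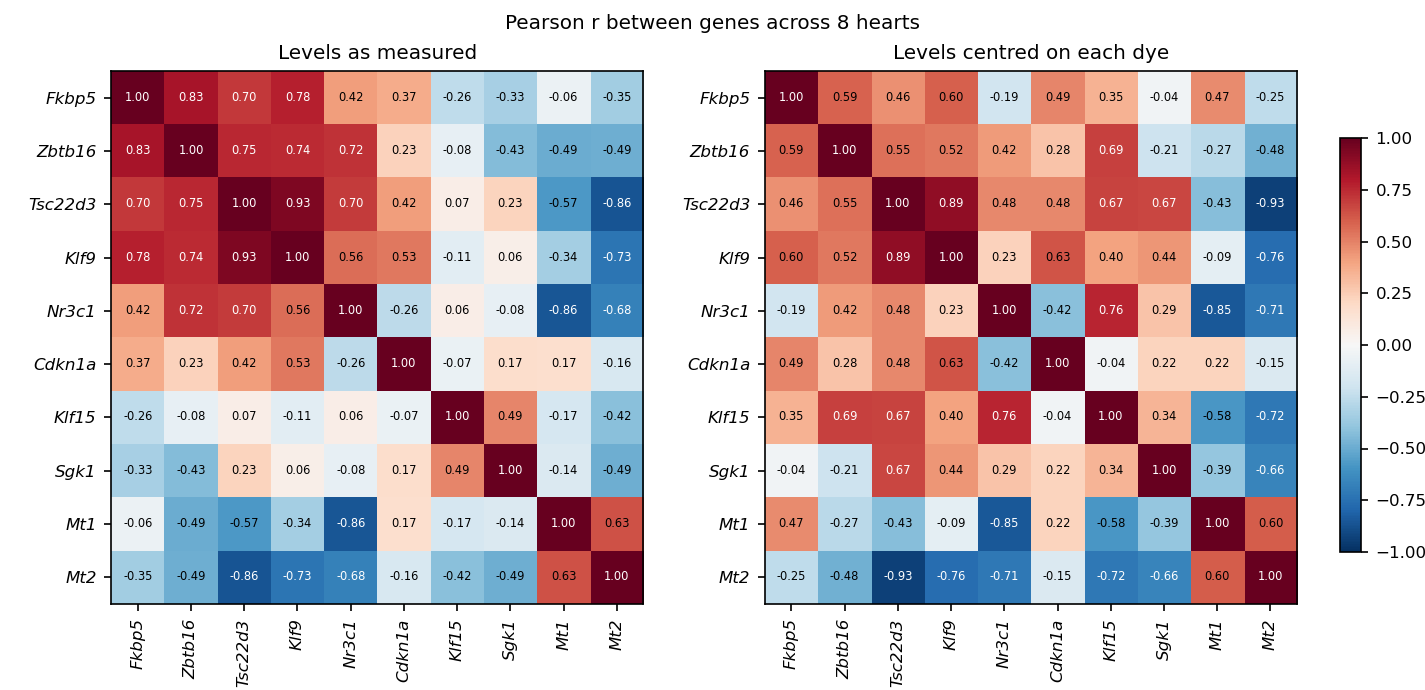
Pearson's r between each pair of the 10 genes over the 8 hearts, with levels as measured (left) and centred on the mean of each dye (right). Fkbp5, Zbtb16, Tsc22d3 and Klf9 form a positive block, at 0.70 to 0.93 on the left and 0.46 to 0.89 on the right (with median centring the r of Zbtb16 is 0.062 with Fkbp5, 0.38 with Tsc22d3 and -0.039 with Klf9), and Mt2 is negative with Tsc22d3 at -0.86 and -0.93.

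**Figure D5:**
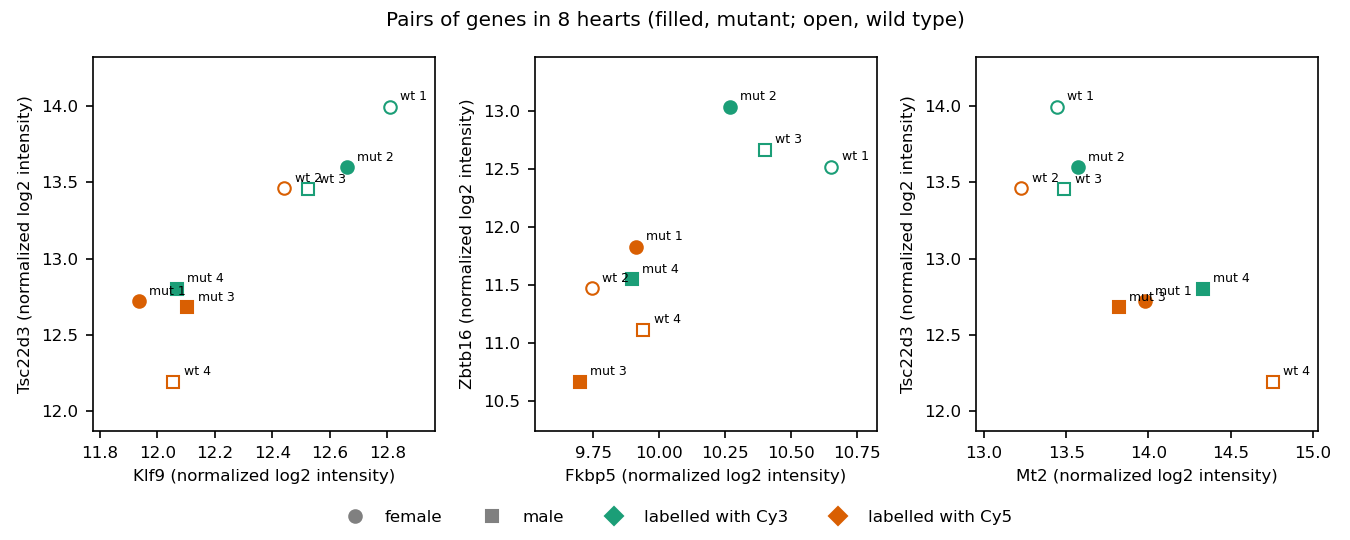
Normalized log2 intensities of 3 pairs of genes in the 8 hearts, filled for mutant and open for wild type, circles for females and squares for males, coloured by dye. Tsc22d3 against Klf9 (left) has r = 0.93, Zbtb16 against Fkbp5 (middle) 0.83, or 0.062 with median centring, and Tsc22d3 against Mt2 (right) -0.86.

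The mean centred level of the 9 targets was taken without scaling, so genes of wide spread weigh most in it. The SD was 0.82 for Zbtb16, against 0.22 for Mt1. The 9 targets did not share 1 direction, as 17 of their 36 pairs had a positive r and 19 a negative r, with a median of -0.06. Their mean was -0.08, 0.17, -0.26 and -0.16 in mutant hearts 1 to 4 and 0.36, 0.01, 0.05 and -0.09 in wild-type hearts. Wild-type heart 1 was highest, mutant heart 3 lowest, and the groups overlapped. Among 13681 other named genes, those most like this profile over the 8 hearts by Pearson's r included Arrdc2 (0.97), Sult1a1 (0.96), Parm1 (0.96), Ganc (0.96) and Eif2b2 (0.95). Arrdc2 and Sult1a1 also stand in the list of other glucocorticoid-induced genes below. Eif2b2 encodes a subunit of a translation initiation factor. Arrdc2, an arrestin domain protein, had levels of 10.23, 11.64, 9.75 and 9.70 in mutant hearts and 12.39, 11.04, 10.97 and 9.98 in wild-type hearts. The lowest r were those of Mlst8 (-0.95), Slf1 (-0.95), Sc5d (-0.95), Fam189a2 (-0.94), Uba6 (-0.93) and Afg3l2 (-0.93). These r are descriptions over 8 hearts of genes ranked by likeness.

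Of 30 other genes known to be induced by glucocorticoids, 29 were measured, Foxo3 being the exception. Between genotypes 8 were positive and 21 negative, beside 55.4% negative over all features, with a median of -0.13, and none passed in limma. At an unadjusted p under 0.05 there were 3, beside 1.02% of features. Angptl4, an inhibitor of lipoprotein lipase, was at -0.86 (SE 0.18), with 9.42, 11.06, 10.04 and 13.04 in mutant hearts and 10.95, 11.85, 11.12 and 13.08 in wild-type hearts. It was lower in the mutant of all 4 pairs, though by little in pair 4. Txnip, an inhibitor of glucose uptake, was at -0.73 (SE 0.17) and Arrdc2 at -0.77 (SE 0.24). Hif3a, a hypoxia-inducible factor, was next at -0.41 (SE 0.15). Cy5 was lower for 20 of the 29, with 7 at an unadjusted p under 0.05 (all 7 lower in Cy5, beside 6.05% of features) and a median of -0.21, where 53.2% of all features were lower with a median of -0.02.

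In the genotype by sex comparison 2 of the 29 passed, where 9.34% of all features were called in either direction. Both were negative, where 0.124% of features were called negative. None of the 29 was called positive, where 2008 of 21792 features were. Other lists held negative calls too, 4 of 8 measured immediate early genes, 4 of 8 atrial markers and 2 of 5 adipocyte markers, and the part of tissue makeup in these differences was not tested. Pdk4, the kinase that shuts off pyruvate oxidation, differed by -1.78 (limma adjusted p = 0.00433), and Errfi1, an inhibitor of growth factor receptors, by -0.98 (limma adjusted p = 0.0451). Dusp1 at -0.95 (limma adjusted p = 0.0515) and Ptgds at 1.02 (0.0587) missed the threshold. No feature was called with processed signals, the deposited matrix or median centring, these genes included. Of the 29 genes, 23 were negative here, beside 55.8% of features.

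Of 13 genes that serve the receptor, such as its chaperones, co-regulators and the enzymes that activate or inactivate the hormone, 12 were measured, all but Hsd11b2. Between genotypes 5 were positive and 7 negative with a median of -0.01, and none passed in limma. At an unadjusted p under 0.05 there was 1, beside 1.02% of features, and neither gene named next was that 1. Nr3c2, the mineralocorticoid receptor, was at -0.18 (SE 0.13), and Hsd11b1, which regenerates active hormone in tissue, at 0.12 (SE 0.13). In the sex comparison of the genotype effect none of the 12 passed in limma.

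Lists of genes that share inducers with the metallothioneins and Cdkn1a showed small differences, to be read beside the 55.4% of features that were negative, or 26.0% with median centring. Of 7 metal response genes, 6 were measured and all 6 were positive between genotypes, with a median of 0.14 and none past the threshold in limma. Hmox1 was at 0.30 (SE 0.15) and Slc39a10, a zinc importer, at 0.24 (SE 0.17). Of 12 p53 targets, 11 were measured, 10 positive and 1 negative, with a median of 0.06, and Zmat3 was at 0.16 (SE 0.11). None of the 11 measured clock genes passed either, with 6 positive, 5 negative and a median of 0.02, and Dbp, a clock output gene, was at 0.25 (SE 0.20). Of 10 immediate early genes 8 were measured, 5 positive and 3 negative, with a median of 0.18, led by Egr1 at 0.50 (SE 0.31).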

How the data were processed

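The 4 arrays were on 1 slide, and the authors extracted the deposited spot intensity values, per the file headers, with Feature Extraction 10.7.3.1 on a grid of mouse build mm9. Median spot intensity and local background, deposited uncorrected per the file headers, were used. Processed intensities and the authors' deposited matrix of log2 values served as alternatives. No header or label says how the matrix was normalized, and its basis of centring stays unknown. On arrays 1 to 4 the Cy3 columns had medians of 0.0055, -0.0033, -0.0067 and -0.010, while the Cy5 columns had -0.0017, 0.013, 0.064 and -0.021. Its Cy5 minus Cy3 difference followed the processed ratios with r of at least 0.991, which settled scale and direction.

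Of 62976 spots 3671 were controls. Background was corrected with normexp (offset 50), ratios were normalized by loess, and levels between arrays by Aquantile, in limma 3.58.1 under R 4.3.3. Probes well above background in at least 4 of 8 samples were kept (28528), and the brightest probe stood for its gene. The share well above background was 44.7% to 54.6% per sample, and the number of arrays limits the precision. Names came from RefSeq, assembly GRCm38.p6, through which 27656 probes had 1 symbol and 28025 none.

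Genotype and genotype by sex were fitted on within-array ratios with a dye term (lmFit, eBayes), and sex on separate channels (lmscFit, intraspot correlation -0.076), with genotype and dye as covariates. Tests were 2-sided, and p-values were adjusted by Benjamini-Hochberg over the whole table. Same-numbered hearts shared an array, which is their pairing, and their deviations from group means correlated at -0.49, -0.11, -0.38 and 0.51. Fits were tested on simulated data. All members are described, with up to 4 genes of smallest p from each other list and the 6 highest and 6 lowest genes by likeness to the targets' mean, apart from results that are not reported here. The members, lists and tests were chosen with earlier results of these data known. The labels name separate individuals as replicates. Alternatives covered background, normalization, filter, probe, dye term, pairing, centring and each pair left out.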

Additional observations from a re-analysis of the deposited data

Results flagged for a closer look

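Tsc22d3 in mutant heart 2 was far from the other mutants: its gap to the next mutant heart was 0.868 of the range of the 4 mutant hearts. Chance alone sets such a mark on about 1 in 20 groups, and this was the only one over the 10 genes in each genotype. The genotype effect on Sgk1 in females minus males was -0.85, with opposite signs on all arrays of the sexes, and its test in limma did not pass (adjusted p = 0.0937). The genotype effect on Zbtb16 differed by 1.22 in the same direction of subtraction and passed in limma (adjusted p = 0.0168), though not with processed signals, the deposited matrix or median centring.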

How the results depend on the processing

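In the genotype comparison 0 of the 10 genes passed in limma under the alternatives run, and 1 feature, Pus1, passed with median centring and 1 with a sex by genotype term, against 0 as reported. The sign of Nr3c1 turned to -0.037 with processed signals, -0.017 with the deposited matrix, -0.00099 without background correction, -0.055 with the mean over probes and -0.11 with the other probe. With median centring Sgk1 turned to 0.038 and Klf15 to 0.020. Leaving out each pair in turn gave -0.38 to -0.098 for Fkbp5, -0.45 to -0.20 for Tsc22d3, -0.38 to -0.15 for Klf9, -0.36 to 0.15 for Sgk1, -0.50 to 0.15 for Zbtb16, -0.26 to 0.032 for Mt1, 0.0023 to 0.39 for Mt2, -0.70 to -0.024 for Cdkn1a, -0.27 to 0.030 for Klf15 and -0.037 to 0.038 for Nr3c1. With no replicate block, each channel being fitted separately and the pairing left out, the median stayed at -0.15 with 8 of 10 negative and 0 called, and the array as a random block changed no call.

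For genotype by sex the features called were 0 with processed signals, 0 with the deposited matrix, 0 with median centring and 1244 with probes above background in all 8 samples, against 2035. Members called were 0 under the first 3. Zbtb16 was at 1.17, 1.09 and 0.75 there, while its range on leaving out a pair, with no test, was 1.12 to 1.31. Median centring gave a median of -0.43 with 8 of 10 negative, and it moved the median of all features to -0.31 from -0.04. Signs turned for Fkbp5 (-0.088), Klf15 (-0.26), Mt1 (-0.40) and Nr3c1 (-0.46) with median centring, for Mt1 (-0.17) and Nr3c1 (-0.055) with the matrix, and for Nr3c1 with the mean over probes (-0.051) and the other probe (-0.12). Leaving out a pair gave -0.040 to 0.57 for Fkbp5, -0.34 to 0.59 for Mt1, -1.35 to 0.62 for Cdkn1a, -0.45 to 0.21 for Klf9, -0.36 to 0.60 for Klf15 and -0.12 to 0.15 for Nr3c1.

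For sex 1 feature passed with the stricter filter and 1 to 12 on leaving out a pair, with a median over the 10 genes of 0.10 to 0.28. Nr3c1 turned to -0.055, -0.070, -0.023 and -0.072 with processed signals, the matrix, the mean over probes and the other probe, and spanned -0.014 to 0.067 on leaving out a pair, where the intraspot correlation of all 4 arrays was kept. The median r over pairs of genes was 0.0064 with the matrix, 0.57 with median centring, 0.28 with dye centring (chosen after seeing the data) and -0.093 to 0.026 on leaving out a pair, and with median centring the r of Zbtb16 was -0.039 with Klf9, 0.062 with Fkbp5 and 0.38 with Tsc22d3. The causes of these shifts were not tested. With 4 pairs, and 1 residual degree of freedom for genotype by sex, precision is limited. The simulated genotype by sex fit, at the spread which that fit left in these ratios, recovered 0% of changes of 3 log2 units. The same fit called 2035 features in the real data, so this 0% does not measure its power here. The simulated spread of each feature was itself taken from 1 residual degree of freedom.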
